A study of Mus musculus with 14 samples.

Results

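The genes described here encode the proteasome, the protein-degrading machine of the cytosol and nucleus, in mouse oocytes that had lost Clpx and in oocytes that had not. They were taken as every gene whose symbol begins with Psm, a letter from a to g and a number, without pseudogenes. The rule found 51 genes among the 18562 listed for either stage. By role 49 of them are proteasome genes, and 2 carry a similar name for another reason: Psmc3ip, which encodes a partner of the meiotic recombinases, and Psme3ip1, which encodes a protein that binds the activator PSME3.

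RNA was measured in 14 libraries at 2 stages. Ovulated oocytes, which have resumed meiosis and left the follicle, gave 3 libraries labelled CKO (Clpx fl/fl; Zp3-Cre) and 3 labelled WT (Clpx fl/fl). Fully grown germinal vesicle (GV) oocytes, still arrested in prophase with an intact nucleus, gave 4 CKO and 4 WT libraries with the same genotypes. Every group therefore carried floxed Clpx, and the WT animals had no Cre. Zp3-Cre is driven by the promoter of a zona pellucida gene that is active in growing oocytes, so deletion begins only during growth. CLPX is the unfoldase of a protease in the mitochondrial matrix and is not part of the proteasome. Strain, age and the number of oocytes or animals behind a library are not given in the labels used here.

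The proteasome has a barrel-shaped 20S core. Its outer rings are built of alpha subunits, which form the gate. Its inner rings are built of beta subunits, of which PSMB5, PSMB6 and PSMB7 carry the chymotrypsin-like, caspase-like and trypsin-like cutting sites. A 19S cap with a ring of ATPases (Psmc genes) and non-ATPase subunits (most Psmd genes) recognises, unfolds and feeds ubiquitin-tagged proteins, while Psme genes encode other activators and Psmg genes and a few Psmd genes encode assembly chaperones. In oocytes the proteasome destroys cyclin B and securin on the way out of the first meiotic division. Transcription is largely silent while the oocyte matures, and stored messages are then decayed, kept or given longer poly(A) tails, for which a U-rich cytoplasmic polyadenylation element near the polyadenylation signal is the best-known mark.

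Clpx, read first as the check of the labels, was close to absent from every CKO library. In ovulated oocytes it stood at 0.465, 0.575 and 0.269 CPM (counts scaled to library size, on a scale common to the 14 libraries) in CKO, against 19.1, 18.5 and 17.0 CPM in WT. In GV oocytes it stood at 0.676, 0.94, 1.36 and 1.44 CPM in CKO, against 39.6 to 58.1 CPM in the 4 WT libraries. Libraries held between 25086506 and 28471453 counts. All 12 oocyte markers were listed, and they summed to between 11600 and 15900 CPM in ovulated and between 24400 and 52600 CPM in GV libraries. Of 13 granulosa and cumulus markers, 9 were listed, and they summed to between 64.6 and 128 CPM in ovulated and between 41.3 and 66.7 CPM in GV libraries. Cyp19a1 and Nr5a2 made up most of this, and without them the sum was between 1.91 and 10.5 CPM. Of 10 markers of theca, stroma, endothelium and blood, 7 were listed, and they summed to between 46.3 and 109 CPM in ovulated and between 21.2 and 45.6 CPM in GV libraries. Pecam1 made up most of this, with 43.6 to 100 CPM in ovulated and 19.4 to 43.8 CPM in GV libraries, and without it the sum was between 0.806 and 9.07 CPM. The part of these markers in the stage comparisons was not tested.

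The ends of the messages are shown first because the largest changes below are between stages, when poly(A) tails are remodelled. Each line gives the last 30 bases of the annotated 3′ untranslated region up to and including its polyadenylation signal, in the DNA alphabet of the transcript strand (GENCODE M21, GRCm38, the assembly that mm10 also denotes). Capitals mark the last polyadenylation signal (AATAAA) of the annotated transcript and, where one lies in the window, a cytoplasmic polyadenylation element (TTTTAT or TTTTAAT). Psmb7, Psmc2 and Psmb5 are among the messages that stood far lower in ovulated oocytes, Psma7 did not pass the test in WT oocytes, Psmd3 and Psme4 rose, and Psmb1, Psmb3 and Psmg3 are the genes with an element inside the window.
Psmb7 (chr2:38588051-38588080, minus strand): gcaattgctcaattaaaataaataAATAAA
Psmc2 (chr5:21803742-21803771, plus strand): tgtaacttgttgccaccgcacaaaAATAAA
Psmb5 (chr14:54614136-54614165, minus strand): ctctaggtgggtctccatggctatAATAAA
Psma7 (chr2:180036390-180036419, minus strand): ccttgtggccatttgtccgagttcAATAAA
Psmd3 (chr11:98695937-98695966, plus strand): aagcttcaattatgatttttaaacAATAAA
Psme4 (chr11:30880330-30880359, plus strand): attttaaaaataaaaaagaacatcAATAAA
Psmb1 (chr17:15475037-15475066, minus strand): taaaacctgtttttgcttttTTTTAATAAA
Psmb3 (chr11:97713457-97713486, plus strand): catctcccttttgtttttctTTTTAATAAA
Psmg3 (chr5:139823622-139823651, minus strand): ttgtgggaagatttTTTTATtaaaAATAAA
In Psmb1 and Psmb3 the element TTTTAAT and the marked signal overlap in 1 run of letters. In Psmg3 the element TTTTAT and the marked signal are separate. Earlier copies of AATAAA in the Psmb7 and Psme4 windows, and of ATTAAA in Psmb7 and Psmg3, are not marked as signals. In Psme4 the marked copy ends 2 bases before the annotated end of the transcript, and which copy is used was not tested. The Psmb1 window lies beyond the 3′ end of the RefSeq gene. The Psme4 window lies short of the 3′ end of its RefSeq gene, at 30881150.

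At the GV stage nearly all of the constitutive proteasome was expressed, at levels that differed between genes. On the deposited FPKM scale, which is per length and so allows genes to be compared, Psma7 and Psma2, 2 genes of the alpha ring, led the list in GV WT oocytes with means of 948 and 925 FPKM. The 14 constitutive 20S genes spanned a 16.1-fold range in GV WT oocytes, with Psmb5 at the bottom on a mean of 58.7 FPKM. The highest beta gene was Psmb2 with a mean of 466 FPKM, and the highest 19S gene was the ubiquitin receptor gene Psmd4 with a mean of 306 FPKM. Psmc5 and Psmc2 led the 19S ATPases, both with a mean of 217 FPKM. Psmf1, which encodes the regulator PI31, led the activators and regulator with 137 FPKM, Psmg1 the 20S assembly chaperones with 63.6 FPKM, and Psmd5 the 19S assembly chaperones with 151 FPKM.

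A few genes stood near 0 in every group. Psma8, which encodes a germline alpha subunit known from spermatocytes, did not pass 0.303 CPM in a library. The immunoproteasome genes Psmb8, Psmb9 and Psmb10, which encode the interferon-induced catalytic subunits, and Psmb11, the thymus form, together summed to between 0.101 and 2.83 CPM. Psme1, an interferon-induced activator gene, reached 1.99 CPM in 1 ovulated WT library and 0.596 CPM or less in the other libraries. Psmd13, which encodes a subunit of the 19S lid, had a GV WT mean of 1.45 FPKM, where the other 16 genes of the 19S cap had a median of 112 FPKM. Psmg2, whose product pairs with that of Psmg1, had a GV WT mean of 1.42 FPKM. Psma8, Psmb8, Psmb9 and the Psme2 copy Psme2b were too low to be tested in any comparison. For 10 genes some libraries held fractional counts: Psma3, Psma4, Psma7, Psmb2, Psmb11, Psme2, Psme2b, Psme3ip1, Psme4 and Psmf1. Such libraries numbered from 1 for Psma7 and Psmb2 to all 14 for Psma3 and Psmf1. Fractional counts were taken as reads shared with other loci, which the labels do not state, so the levels of these genes are less certain.

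**Figure D1:**
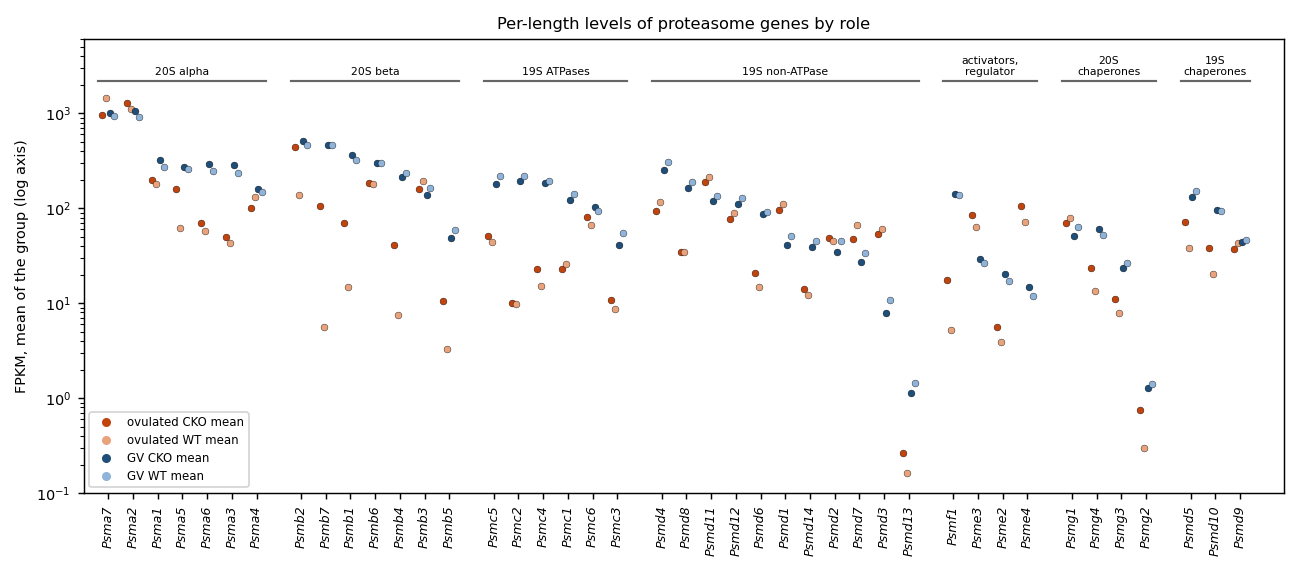
Mean FPKM (log axis) of the 42 proteasome genes with a GV WT mean of at least 1 FPKM, grouped by role and ordered by the GV WT mean, with 1 point for each group of libraries. Psma7 and Psma2 keep the top places in all groups, while Psmb7, Psmb1 and Psmb4 drop from the upper part of the GV range to 5.63, 14.8 and 7.47 FPKM in ovulated WT oocytes.

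Loss of Clpx was first compared at the GV stage, where the oocyte still has its nucleus. No proteasome gene passed the test there. Of the 45 genes of the symbol rule that were tested, 0 passed an edgeR adjusted p of 0.05, where 3 of 12265 genes passed overall (0.0245%), and 0 had an unadjusted p under 0.05, against 5.74% of all genes. DESeq2 called 0 as well, with 1 at an unadjusted p under 0.05, and called 0.318% of all genes. For 0 of the 45 did the CKO and WT libraries separate without overlap, against 3.66% of all genes tested. The median log2 fold change was 0.07 for these genes and 0.02 for all genes tested.

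The 4 genes with the smallest p-values did not pass. Psma3, an alpha ring gene, had 315, 379, 291 and 331 CPM in GV CKO and 177, 296, 198 and 294 CPM in GV WT libraries, so the highest WT library overlapped the lowest CKO library. The fitted change was 0.45 on the log2 scale (SE 0.211, edgeR adjusted p = 0.834). Psma6, also of the alpha ring, had 264, 321, 234 and 263 CPM in GV CKO and 149, 259, 162 and 258 CPM in GV WT libraries, and its change on the log2 scale was 0.39 (SE 0.219, edgeR adjusted p = 0.836). WT replicates 1 and 3 were the low libraries for both genes.
The ATPase gene Psmc6 had 141, 188, 159 and 175 CPM in GV CKO and 115, 144, 130 and 152 CPM in GV WT libraries (log2 fold change 0.29, SE 0.172, edgeR adjusted p = 0.836). The alpha gene Psma1 had 360, 456, 352 and 436 CPM in GV CKO and 208, 377, 241 and 392 CPM in GV WT libraries (log2 fold change 0.40, SE 0.235, edgeR adjusted p = 0.836). Both again overlapped between the genotypes. All 7 alpha genes tested had a higher CKO than WT mean, with log2 fold changes between 0.23 and 0.45, as had 52.9% of all genes tested, and none of the 7 passed. Their fold changes were also above 0 with total counts in place of TMM scaling, which moved the median of all genes to −0.14. Among the 11 non-ATPase subunit genes of the 19S cap 2 had a log2 fold change above 0, in a range from −0.25 to 0.08. Standard errors of the 43 proteasome genes tested were between 0.154 and 0.629 with a median of 0.221.

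For each catalytic gene the CKO and WT levels stood close together at the GV stage. Psmb5 had 35.6, 29.5, 32.0 and 54.8 CPM in GV CKO and 53.2, 37.7, 35.1 and 25.5 CPM in GV WT libraries. Psmb6 had 329, 266, 259 and 290 CPM in GV CKO and 227, 292, 228 and 258 CPM in GV WT libraries. Psmb7 had 398, 426, 370 and 334 CPM in GV CKO and 284, 391, 311 and 391 CPM in GV WT libraries. The groups overlapped for all 3 genes, with log2 fold changes of 0.00 for Psmb5 (SE 0.266), 0.18 for Psmb6 (SE 0.172) and 0.15 for Psmb7 (SE 0.185), and edgeR adjusted p from 0.871 for Psmb6 to 0.998 for Psmb5. Of 22 listed partners of the proteasome outside the symbol rule, 0 passed at the GV stage. The smallest p-value there belonged to the proteasome-bound deubiquitinase gene Usp14 (log2 fold change 0.37, edgeR adjusted p = 0.836). Psmc3ip had a log2 fold change of −0.03 and Psme3ip1 one of 0.09.

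The same genotypes were then compared in ovulated oocytes. Here 5 genes of the beta ring had higher CKO than WT means, Psmb7 by 17.0-fold, Psmb4 by 4.85-fold, Psmb1 by 4.22-fold, Psmb2 by 2.96-fold and Psmb5 by 2.72-fold, but none passed the edgeR test. The 3 CKO libraries were not alike: replicates 1 and 2 carried the difference and replicate 3 lay within or near the WT range. Of the 43 genes of the symbol rule that were tested, 0 passed an edgeR adjusted p of 0.05, where 1 of 12044 genes passed overall (0.0083%). At an unadjusted p under 0.05 there were 9 of the 43, against 7.76% of all genes tested. DESeq2 called 4 of the 43 higher, Psmb1, Psmb2, Psmb4 and Psmb7, against 0.947% of all genes tested, and edgeR fitted to all 14 libraries called Psmb7 alone, against 0.486%. The CKO libraries lay wholly above the WT libraries for Psmb1 and Psmb2, against 5.51% of all genes, and wholly below them for Psma7, Psmc1, Psmd4 and Psmd7, against 5.12%.

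Psmb7, the gene of the trypsin-like subunit, had 102, 72.9 and 2.76 CPM in ovulated CKO libraries and 1.91, 3.59 and 4.56 CPM in ovulated WT libraries. CKO replicates 1 and 2 were far above every WT library, and CKO replicate 3 lay inside the WT range. The difference was 4.08 on the log2 scale (SE 0.934, edgeR adjusted p = 0.524). Psmb4, a non-catalytic beta gene, had 47.0, 19.2 and 4.01 CPM in ovulated CKO and 2.80, 4.11 and 6.96 CPM in ovulated WT libraries (log2 fold change 2.28, SE 0.697, edgeR adjusted p = 0.524). Its CKO replicate 3 again lay inside the WT range.
Psmb1, another non-catalytic beta gene, had 90.7, 31.2 and 11.9 CPM in ovulated CKO and 7.79, 11.2 and 11.5 CPM in ovulated WT libraries (log2 fold change 2.08, SE 0.577, edgeR adjusted p = 0.524). Psmb2 had 299, 228 and 116 CPM in ovulated CKO and 44.4, 111 and 54.8 CPM in ovulated WT libraries (log2 fold change 1.57, SE 0.415, edgeR adjusted p = 0.524). For these 2 genes the groups did not overlap, but only narrowly, with CKO replicate 3 just above the highest WT library. Psmb5, the chymotrypsin-like gene, was low throughout, with 9.70, 5.51 and 0.875 CPM in ovulated CKO and 1.59, 0.583 and 3.55 CPM in ovulated WT libraries (log2 fold change 1.44, SE 0.805, edgeR adjusted p = 0.706).

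The other 2 beta genes showed no such spread. Psmb6, the caspase-like gene, had 134, 93.4 and 135 CPM in ovulated CKO and 165, 85.4 and 134 CPM in ovulated WT libraries (log2 fold change −0.10, SE 0.303, edgeR adjusted p = 0.943). Psmb3 had 56.5, 53.3 and 88.1 CPM in ovulated CKO and 54.4, 103 and 90.6 CPM in ovulated WT libraries (log2 fold change −0.33, SE 0.335, edgeR adjusted p = 0.825). In the alpha ring the log2 fold changes ran from −0.69 for Psma7 (SE 0.306, edgeR adjusted p = 0.639) to 1.28 for Psma5, which had 178, 135 and 57.5 CPM in ovulated CKO and 31.8, 86.3 and 29.4 CPM in ovulated WT libraries (edgeR adjusted p = 0.58). The 6 ATPase genes lay between −0.28 and 0.44, and the 10 non-ATPase genes tested between −0.61 and 0.35.
Psmf1 also had its high values in CKO replicates 1 and 2, with 57.4, 53.1 and 11.9 CPM in ovulated CKO and 12.6, 13.5 and 14.5 CPM in ovulated WT libraries (log2 fold change 1.55, SE 0.477, edgeR adjusted p = 0.524). So did Psmc3ip, with 16.7, 7.84 and 1.18 CPM in ovulated CKO and 1.91, 2.01 and 2.16 CPM in ovulated WT libraries (log2 fold change 2.02, SE 0.714, edgeR adjusted p = 0.572). Psme3ip1 had 101, 116 and 64.9 CPM in ovulated CKO and 64.5, 86.5 and 54.9 CPM in ovulated WT libraries (log2 fold change 0.42, edgeR adjusted p = 0.759).

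**Figure D2:**
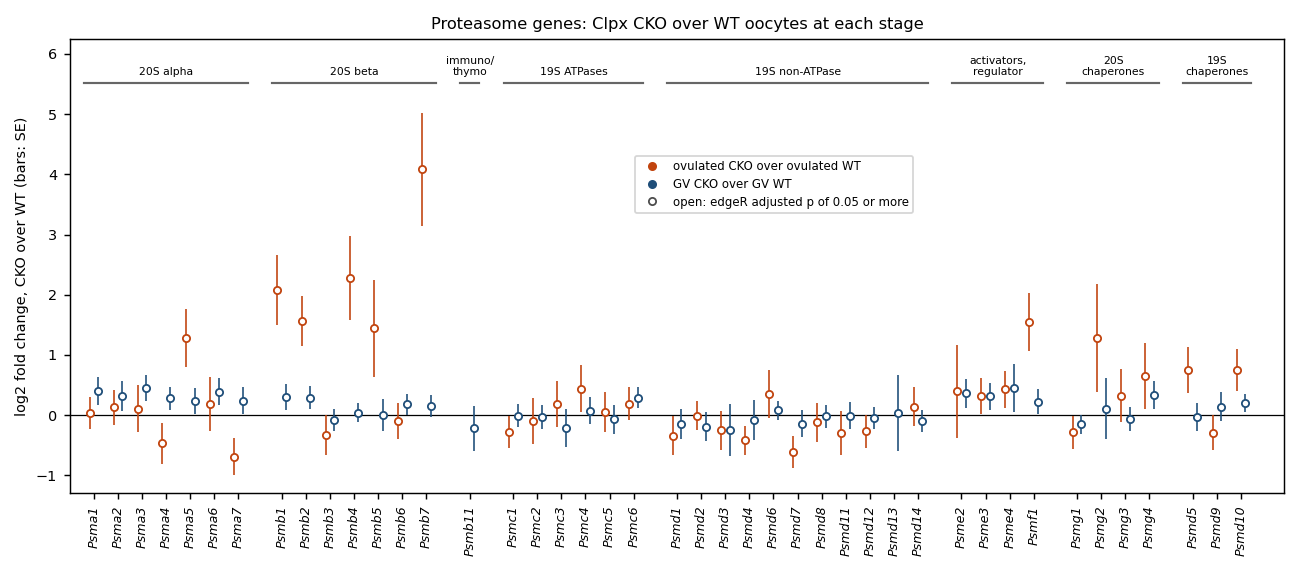
Log2 fold change of CKO over WT (vertical axis, bars are standard errors) for each tested proteasome gene, grouped by role, in ovulated and in GV oocytes. Open points did not pass an edgeR adjusted p of 0.05, which holds for every point. The ovulated values of Psmb7 (4.08), Psmb4 (2.28) and Psmb1 (2.08) stand above the rest, and the GV values lie between −0.25 and 0.45.

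The dependence on CKO replicate 3 was examined further, on a pattern that was chosen after the values were seen. CKO replicates 1 and 2 both stood above the other 4 ovulated libraries for 11 of the 43 genes: Psma5, Psmb1, Psmb2, Psmb4, Psmb5, Psmb7, Psmc3ip, Psmd6, Psmd10, Psme3ip1 and Psmf1. Over all genes tested this order was found for 17.7%. All 9 proteasome genes among the 11 also fell between GV WT and ovulated WT oocytes. Among the 28 proteasome genes that fell in that way and could be tested here the order was found for 32.1%, and among all 3849 such genes for 43.6%, and the ovulated WT libraries used to pick these genes are the same as those compared here. Of the 6 beta genes in this group, 5 showed it. The granulosa and cumulus markers summed to 65.3, 64.6 and 107 CPM in ovulated CKO and 128, 64.6 and 99.5 CPM in ovulated WT libraries. Their part in the result was not tested.

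Without CKO replicate 3, with 2 CKO libraries left, edgeR called 5 of 47 genes of the symbol rule higher in ovulated CKO oocytes, against 1.6% of all genes tested. They were Psmb7 (log2 fold change 4.60, edgeR adjusted p = 0.00223), Psmb4 (2.73, edgeR adjusted p = 0.0257), Psmb1 (2.47, edgeR adjusted p = 0.025), Psmf1 (1.93, edgeR adjusted p = 0.0165) and Psmc3ip (2.48, edgeR adjusted p = 0.0266). Psmb2 missed the threshold (1.80, edgeR adjusted p = 0.0523). Leaving out CKO replicate 1 instead lowered these values, to 3.48 for Psmb7, 1.32 for Psmb4, 1.09 for Psmb1, 0.74 for Psmb5 and 1.15 for Psmc3ip on the log2 scale. The labels give no ground for leaving either library out.

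Among the 22 partners 0 passed the edgeR test in ovulated oocytes, and DESeq2 called 1, Nploc4 (adjusted p = 0.0235). Nploc4, which encodes a cofactor of the p97 unfoldase that hands proteins to the proteasome, had 27.5, 44.7 and 7.03 CPM in ovulated CKO and 4.68, 8.99 and 3.99 CPM in ovulated WT libraries (log2 fold change 2.12, edgeR adjusted p = 0.524, and 0.0242 without CKO replicate 3). Ddi2, which encodes the protease that activates the transcription factor NFE2L1, had 22.8, 15.8 and 22.3 CPM in ovulated CKO and 32.1, 29.1 and 59.2 CPM in ovulated WT libraries (a 0.501-fold level, edgeR adjusted p = 0.557). Nploc4 had the same high CKO libraries as the beta genes, and Ddi2 was lower in each CKO than in each WT library.

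An interaction over the 14 libraries compared the CKO effect in ovulated oocytes with that in GV oocytes. Of 47 genes of the symbol rule 0 passed in edgeR, where 1 of 13158 genes did (0.0076%), and 7 of the 47 had an unadjusted p under 0.05, against 9.16% of all genes. Psmb7 came closest, with a difference between the stages of 3.99 on the log2 scale (SE 0.931, edgeR adjusted p = 0.28), followed by Psmb4 with 2.30 (SE 0.711, edgeR adjusted p = 0.318). DESeq2 called Psmb7 alone among them (adjusted p = 0.00651), against 0.486% of all genes. Without ovulated CKO replicate 3 edgeR called the same 5 genes as in ovulated oocytes, against 3.68% of all genes tested.

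The changes that passed the test were between the stages within a genotype. Ovulated and GV libraries came in separate tables, so the stage and any difference in how the 2 sets of libraries were made cannot be told apart. The values are relative to the RNA of each library: a loss of total RNA per oocyte does not show in them, fewer oocytes and less RNA per oocyte cannot be told apart, and with cDNA primed on poly(A) tails a shorter tail and a lost message cannot be told apart either.

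In WT oocytes most proteasome messages fell. Of the 47 genes of the symbol rule that were tested, 32 were lower in ovulated than in GV oocytes and 5 were higher at an edgeR adjusted p of 0.05, against 34.0% of all 13158 genes lower and 29.7% higher (63.7% in either direction). These are shares of 68.1% lower and 10.6% higher for the symbol rule. The median log2 fold change was −2.23, against −0.08 over all genes tested. With total counts, which moved the median of all genes to 0.26, 29 were lower and 7 higher, with a median of −1.80. The shares of all genes called with total counts were not counted. The 3 lower calls lost with total counts were those of Psma1, Psmc6 and Psmd12, with edgeR adjusted p from 0.0676 to 0.163. Psma7 (0.69, edgeR adjusted p = 0.0267) and Psmd11 (0.71, edgeR adjusted p = 0.0158) were called higher with total counts and not with TMM scaling. Summed over the 49 proteasome genes, their level was 4140, 4660 and 4170 CPM in ovulated WT and 6940, 9290, 6680 and 9710 CPM in GV WT libraries, so every ovulated library lay below every GV library. Psma2 and Psma7, neither of which passed with TMM scaling, were the highest of these genes in every group on the FPKM scale.

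**Figure D3:**
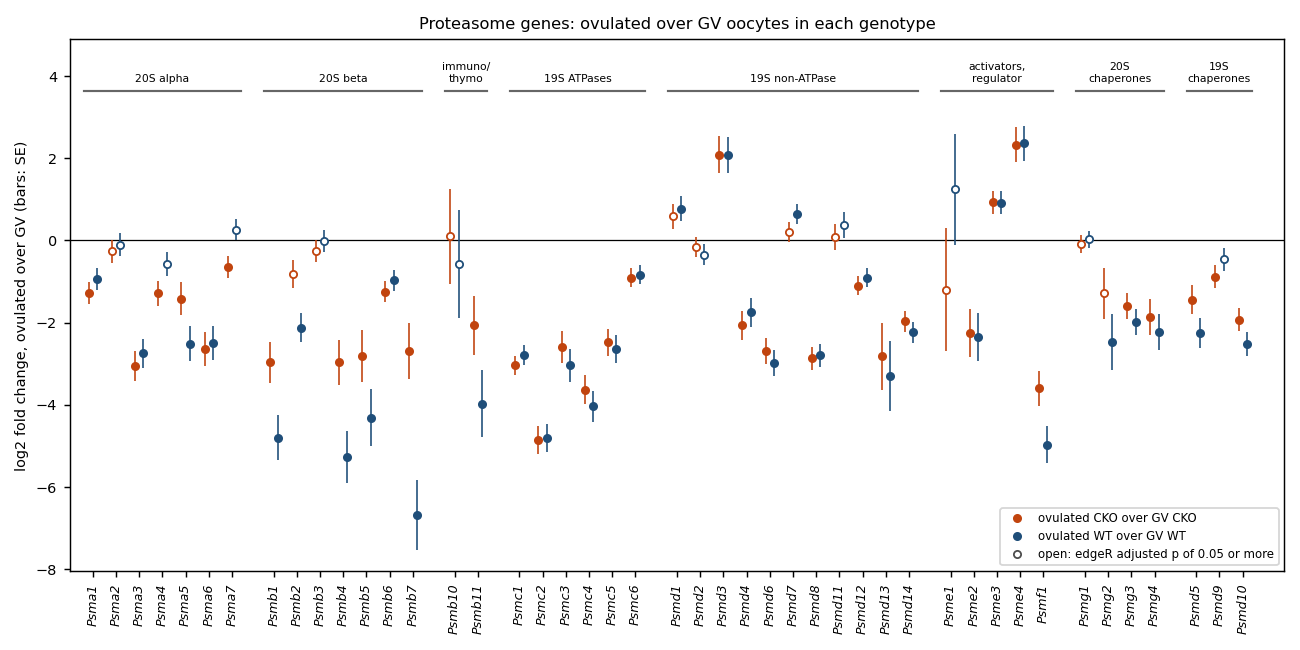
Log2 fold change of ovulated over GV oocytes (vertical axis, bars are standard errors) for each tested proteasome gene, grouped by role, in CKO and in WT. Filled points passed an edgeR adjusted p of 0.05. Most points lie below 0, the beta genes Psmb7 (−6.68), Psmb4 (−5.27) and Psmb1 (−4.80) are among the lowest in WT, and Psmd3, Psme3 and Psme4 lie above 0 in both genotypes.

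The beta ring showed a wide contrast between its members. Of its 7 genes, 6 fell in WT oocytes, with a median log2 fold change of −4.31 over the 7. Psmb7 fell most of all proteasome genes, to 1.91, 3.59 and 4.56 CPM in ovulated WT, against 284, 391, 311 and 391 CPM in GV WT, a 102-fold lower level (log2 fold change −6.68, SE 0.853, edgeR adjusted p = 8.01e-06). Psmb4 was 38.5-fold lower and Psmb1 27.9-fold lower. Psmb5 fell to 1.59, 0.583 and 3.55 CPM in ovulated WT, against 53.2, 37.7, 35.1 and 25.5 CPM in GV WT (log2 fold change −4.31, SE 0.689, edgeR adjusted p = 5.55e-05).
The third catalytic gene, Psmb6, fell much less, to 165, 85.4 and 134 CPM in ovulated WT, against 227, 292, 228 and 258 CPM in GV WT (log2 fold change −0.97, SE 0.251, edgeR adjusted p = 0.00296). Psmb3 did not pass, with 54.4, 103 and 90.6 CPM in ovulated WT and 93.9, 90.5, 80.9 and 68.2 CPM in GV WT libraries (log2 fold change −0.01, SE 0.265, edgeR adjusted p = 0.967). The messages of the 3 catalytic subunits, which assemble in equal numbers, thus stood at 3.30 FPKM for Psmb5, 180 FPKM for Psmb6 and 5.63 FPKM for Psmb7 in ovulated WT oocytes, against 58.7, 297 and 461 FPKM in GV WT oocytes.

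In the alpha ring 4 of the 7 genes tested fell and 3 did not pass. Psma3 fell most, to 21.5, 50.8 and 35.3 CPM in ovulated WT, against 177, 296, 198 and 294 CPM in GV WT (log2 fold change −2.75, SE 0.362, edgeR adjusted p = 1.02e-05). Psma5 and Psma6 were 5.70-fold and 5.64-fold lower, and Psma1 was 1.92-fold lower. Psma7 had 708, 1190 and 760 CPM in ovulated WT and 567, 892, 610 and 887 CPM in GV WT libraries (log2 fold change 0.26, SE 0.261, edgeR adjusted p = 0.388). Psma2 (log2 fold change −0.10) and Psma4 (−0.57) did not pass either. With total counts Psma7 was called higher (0.69, edgeR adjusted p = 0.0267), and Psma2 and Psma4 again did not pass.
The rings were also compared by their sums, with no test, since a sum weighs its highest genes most. The summed FPKM of the alpha genes divided by that of the constitutive beta genes was 5.33, 6.36 and 4.85 in ovulated WT and 1.30, 1.66, 1.37 and 1.78 in GV WT libraries. In ovulated CKO libraries the ratio was 2.43, 2.57 and 3.99, and in GV CKO libraries 1.69, 1.78, 1.49 and 1.78. Each ovulated library lay above each GV library, and among the ovulated libraries each CKO library lay below each WT library, with CKO replicate 3 nearest to WT. Across the 14 constitutive 20S genes the highest mean FPKM was 122 times the lowest in ovulated CKO, 442 times in ovulated WT, 21.5 times in GV CKO and 16.1 times in GV WT oocytes.

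**Figure D4:**
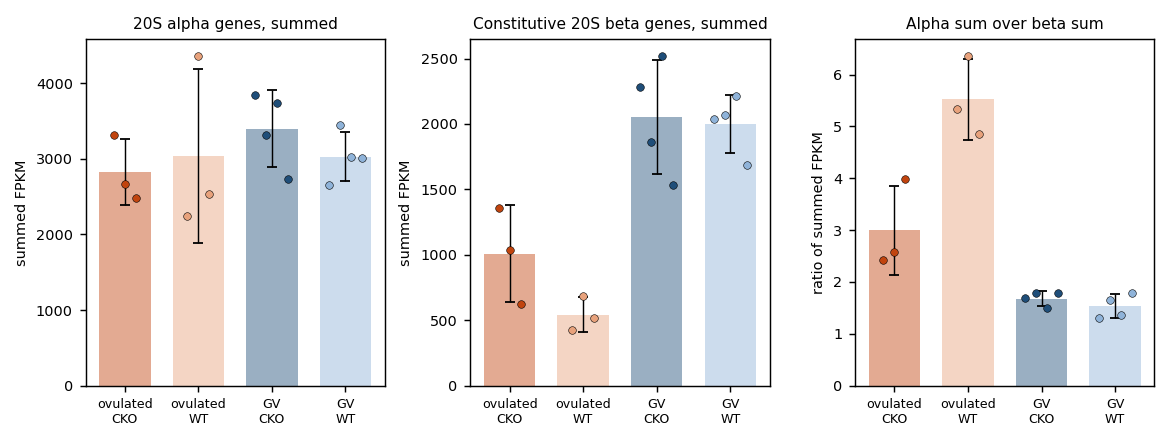
Summed FPKM of the 20S alpha genes (left), of the 7 constitutive 20S beta genes (middle) and the ratio of the sums (right) in each group. Bars are means, error bars are SD and points are single libraries (n = 3 ovulated, n = 4 GV). The ratio lies between 2.43 and 3.99 in ovulated CKO, between 4.85 and 6.36 in ovulated WT, and at or below 1.78 in all GV libraries.

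All 6 genes of the ATPase ring, the motor of the 19S cap, fell in WT oocytes, with a median log2 fold change of −2.91. Psmc2 fell to 7.97, 13.0 and 10.4 CPM in ovulated WT, against 247, 345, 217 and 361 CPM in GV WT (log2 fold change −4.80, SE 0.34, edgeR adjusted p = 2.51e-07). Psmc6 fell least, to 57.5, 81.8 and 89.4 CPM in ovulated WT, against 115, 144, 130 and 152 CPM in GV WT (log2 fold change −0.83, SE 0.231, edgeR adjusted p = 0.00507), and did not pass with total counts (−0.44, adjusted p = 0.163). Ovulated WT libraries lay below GV WT libraries without overlap for all 6, as for 35.1% of all genes tested.
The 11 non-ATPase subunit genes split: 6 fell, 3 rose and 2 did not pass. Psmd13, at levels below 3 CPM in every WT library, had the lowest log2 fold change (−3.30, SE 0.844, edgeR adjusted p = 0.00271). Of the well-expressed genes Psmd6 was 7.88-fold lower and Psmd8 6.95-fold lower, the deubiquitinase gene Psmd14 4.71-fold lower and the ubiquitin receptor gene Psmd4 3.35-fold lower. Psmd3, a lid subunit gene, rose to 68.2, 123 and 96.8 CPM in ovulated WT, against 23.0, 19.8, 13.7 and 34.4 CPM in GV WT (log2 fold change 2.08, SE 0.44, edgeR adjusted p = 0.00063). Psmd1, which encodes a scaffold of the cap, rose by 0.77 on the log2 scale (SE 0.301, edgeR adjusted p = 0.0346) with overlapping libraries, and Psmd7, whose product pairs with PSMD14, rose by 0.65 (SE 0.241, edgeR adjusted p = 0.0261).

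Among the activators the direction differed from gene to gene. Psme4, which encodes the activator PA200, rose most of all proteasome genes, to 515, 339 and 260 CPM in ovulated WT, against 47.5, 90.9, 111 and 40.8 CPM in GV WT (log2 fold change 2.36, SE 0.425, edgeR adjusted p = 0.000163). Psme3, the gene of the nuclear activator PA28 gamma, rose by 0.92 on the log2 scale (SE 0.281, edgeR adjusted p = 0.0089), with 129, 170 and 91.2 CPM in ovulated WT and 53.1, 82.0, 75.0 and 64.6 CPM in GV WT libraries. Psmf1 fell to 12.6, 13.5 and 14.5 CPM in ovulated WT, against 418, 371, 390 and 521 CPM in GV WT (log2 fold change −4.97, SE 0.457, edgeR adjusted p = 8.15e-07). Psme4 and Psmf1 are among the genes with fractional counts. On the FPKM scale Psme4 stood at a mean of 72.1 in ovulated WT and 11.8 in GV WT oocytes, and Psmf1 at 5.27 in ovulated WT and 137 in GV WT oocytes, so the order of these 2 genes was reversed between the stages.
Of the 4 chaperone genes of the 20S core 3 fell: Psmg3 was 3.99-fold and Psmg4 4.68-fold lower, and Psmg2, at under 3 CPM throughout, had the lowest log2 fold change (−2.46, edgeR adjusted p = 0.00478). Psmg1 did not pass, with 47.8, 64.8 and 51.6 CPM in ovulated WT and 53.7, 57.7, 55.6 and 48.1 CPM in GV WT libraries (log2 fold change 0.03, SE 0.21, edgeR adjusted p = 0.921). Of the 19S chaperone genes Psmd10, the gene of gankyrin, was 5.72-fold lower and Psmd5 4.77-fold lower, while Psmd9 did not pass (log2 fold change −0.46, SE 0.286, edgeR adjusted p = 0.164). Psmb11, at no more than 2.6 CPM in any library, fell by 3.97 on the log2 scale (edgeR adjusted p = 0.00047), and Psmb10 did not pass (−0.58, SE 1.31, edgeR adjusted p = 0.712). Psmc3ip was 15.1-fold lower and Psme3ip1 2.78-fold lower in ovulated WT oocytes.

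**Figure D5:**
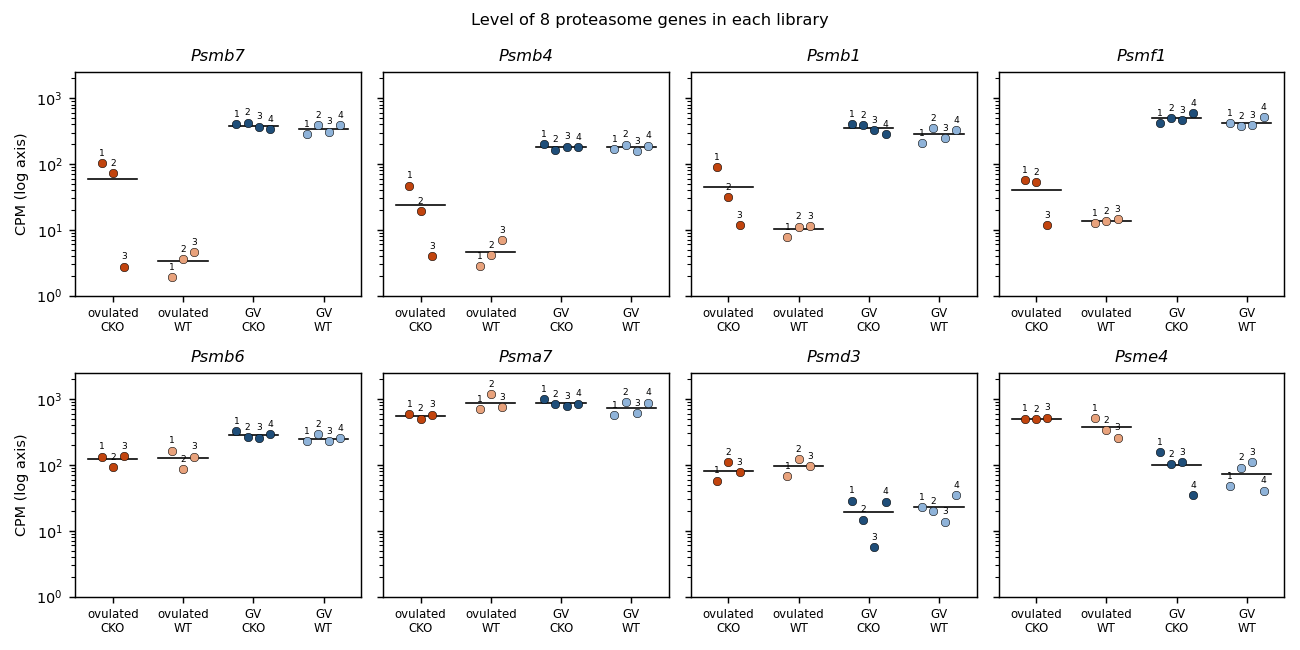
CPM (log axis) of 8 proteasome genes in each library, with a line at the group mean and the replicate number above each point. Psmb7, Psmb4, Psmb1 and Psmf1 are low in all ovulated WT libraries and higher in ovulated CKO replicates 1 and 2 than in replicate 3. Psmb6 lies between 85.4 and 329 CPM and Psma7 between 504 and 1190 CPM over all libraries, and Psmd3 and Psme4 are higher in all ovulated than in all GV libraries.

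In CKO oocytes, measured in other libraries though with a shared estimate of spread, most proteasome messages also fell. Of the 47 genes of the symbol rule 33 were lower and 3 higher in ovulated than in GV oocytes, against 29.9% of all genes lower and 25.8% higher (55.7% in either direction). The median log2 fold change was −1.44, against −0.14 over all genes tested. With total counts in place of TMM scaling, which moved the median of all genes to 0.45, the split was 24 lower and 6 higher. The median of the 47 was then −0.85, and the shares of all genes called were again not counted. The 9 lower calls lost with total counts were those of Psma4, Psma5, Psma7, Psmb11, Psmc3ip, Psmc6, Psmd9, Psmd12 and Psme3ip1, with edgeR adjusted p from 0.0758 to 0.866. Called higher with total counts and not with TMM scaling were Psmd1 (1.21, edgeR adjusted p = 0.000312), Psmd7 (0.83, edgeR adjusted p = 0.0142) and Psmd11 (0.69, edgeR adjusted p = 0.0224). The 49 proteasome genes summed to 4990, 4120 and 4170 CPM in ovulated CKO and 9200, 9530, 7980 and 9610 CPM in GV CKO libraries.

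By role, all 6 ATPase genes fell in CKO oocytes, among them Psmc2 by 28.8-fold and Psmc6 by 1.88-fold (log2 fold changes −4.85 and −0.91, edgeR adjusted p = 6.89e-07 and 0.00333). With total counts Psmc6 did not pass (−0.30, adjusted p = 0.366). In the alpha ring 6 of 7 genes fell, from Psma3 (log2 fold change −3.05, edgeR adjusted p = 1.06e-05) to Psma7 (−0.64, edgeR adjusted p = 0.0489, and −0.06 with total counts, adjusted p = 0.866), and Psma2 did not pass (−0.26, edgeR adjusted p = 0.439). In the beta ring 5 of 7 genes fell. Their log2 fold changes were −2.97 for Psmb4 and Psmb1, −2.82 for Psmb5, −2.69 for Psmb7 and −1.25 for Psmb6, and edgeR adjusted p from 0.000128 for Psmb1 to 0.00356 for Psmb7.
Psmb2 (−0.81, edgeR adjusted p = 0.0509, called by DESeq2 with an adjusted p of 0.0413) and Psmb3 (−0.26, edgeR adjusted p = 0.417) did not pass. Of the non-ATPase genes 6 fell with TMM scaling, with Psmd8 lowest (−2.87, edgeR adjusted p = 3.56e-06), and Psmd3 alone rose. Psmd3 had 57.8, 109 and 78.1 CPM in ovulated CKO and 28.7, 14.8, 5.66 and 27.7 CPM in GV CKO libraries (log2 fold change 2.09, SE 0.44, edgeR adjusted p = 0.000833). Psme4 rose to 504, 490 and 524 CPM in ovulated CKO, against 156, 102, 110 and 35.0 CPM in GV CKO (log2 fold change 2.33, SE 0.425, edgeR adjusted p = 0.00026). Psme3 rose by 0.93 on the log2 scale (edgeR adjusted p = 0.00992), and Psmf1 fell by 3.60 (SE 0.424, edgeR adjusted p = 9.1e-06). Psmg4 was the lowest of the 20S chaperone genes (−1.87, edgeR adjusted p = 0.00177), Psmg1 did not pass (−0.09, edgeR adjusted p = 0.729), and the 19S chaperone genes ran from Psmd10 (−1.93, edgeR adjusted p = 4.61e-05) to Psmd9 (−0.88, edgeR adjusted p = 0.0158, and −0.25 with total counts, adjusted p = 0.451). Psmb11 fell by 2.07 (edgeR adjusted p = 0.0202, but 0.0693 without ovulated CKO replicate 3), and Psmb10 did not pass (0.10, edgeR adjusted p = 0.948). Psmc3ip and Psme3ip1 were 3.54-fold and 2.16-fold lower, with edgeR adjusted p of 0.0758 and 0.168 under total counts.

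Gene by gene, 28 of the 45 proteasome genes tested were lower in ovulated oocytes of both genotypes, against 26.6% of all 13158 genes, and 3 were higher in both (Psmd3, Psme3 and Psme4), against 23.1%. The 7 that passed in neither with TMM scaling were Psma2, Psmb3, Psmb10, Psmd2, Psmd11, Psme1 and Psmg1. The remaining 7 passed in 1 genotype only, which does not show that the genotypes differed, since 0 genes passed the test of that difference. Psmb2, Psmd1, Psmd7 and Psmg2 passed in WT and not in CKO oocytes with edgeR, and Psma4, Psma7 and Psmd9 passed in CKO and not in WT oocytes. These lists depend on the scaling: Psmd1, Psmd7 and Psmd11 were called higher in both genotypes with total counts.

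The 22 partners of the proteasome outside the symbol rule were called about as often as all genes in WT oocytes. There 7 were lower (31.8%, against 34.0% of all genes) and 6 higher (27.3%, against 29.7%) in ovulated than in GV oocytes, with a median log2 fold change of 0.03. With total counts 5 were lower and 8 higher, with a median of 0.39, against 0.26 over all genes. Adrm1, which encodes a ubiquitin receptor of the 19S cap, fell by 2.89 (edgeR adjusted p = 6e-05) and Nploc4 by 3.22 (edgeR adjusted p = 0.000114) on the log2 scale. Zfand2a, an arsenite-inducible gene whose product binds the proteasome, rose by 1.97 (edgeR adjusted p = 2.14e-05), and the proteasome-associated ubiquitin ligase gene Ube3c by 1.84 (edgeR adjusted p = 8.5e-05).
In CKO oocytes 7 were lower (31.8%, against 29.9% of all genes) and 4 higher (18.2%, against 25.8%). With total counts 2 were lower and 7 higher, with a median of 0.35, against 0.45 over all genes. Adrm1 fell by 2.10 (edgeR adjusted p = 0.000889) and Ubxn1, a p97 cofactor gene, by 1.99 (edgeR adjusted p = 0.00306). Zfand2a rose by 2.18 (edgeR adjusted p = 1.95e-05). Nfe2l1, which encodes the transcription factor that raises proteasome genes when the proteasome is inhibited, rose to 68.8, 103 and 80.2 CPM in ovulated CKO, against 39.1, 22.3, 14.0 and 16.2 CPM in GV CKO (log2 fold change 1.87, edgeR adjusted p = 0.000593), and also passed in WT oocytes (1.64, edgeR adjusted p = 0.00126).

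The message ends printed above were set beside these changes as a description. Motifs were searched on the transcript strand of 1 annotated transcript a gene. The signal AATAAA or ATTAAA lay in the last 40 bases of 38 of the 45 proteasome genes tested (84.4%), against 76.6% of the 12732 genes with an annotated 3′ untranslated region. The element TTTTAT or TTTTAAT lay in the last 100 bases of 6 of the 45 (13.3%), against 19.3% of all genes. Only the 3′ untranslated region was searched, so fewer bases were searched where it is shorter than 100 bases. Among the proteasome genes it is as short as 44 bases (Psme2), so the 2 shares rest on unequal search lengths. These 6 were Psma1, Psma5, Psmb1, Psmb3, Psmg1 and Psmg3.
Their changes in WT oocytes ran from −4.80 for Psmb1 to 0.03 for Psmg1, with a median log2 fold change of −1.47, against −2.24 for the 39 proteasome genes without the element. Over all genes the medians were 0.69 with and −0.32 without the element. Psmb1 and Psmb3, whose windows end in the same 10 letters, had log2 fold changes of −4.80 and −0.01. The Psmb1 window lies on a GENCODE transcript with a 3′ untranslated region of 999 bases. It lies beyond the 3′ end of the RefSeq gene at 15475721, and which end these oocytes use was not tested. Psmd3 and Psme4, which rose, had no element in the last 100 bases of the GENCODE transcript. For Psme4 the RefSeq gene runs on to 30881150, past the bases searched, so an element further along would not be seen. The 3′ untranslated regions of the proteasome genes had a median length of 213 bases, against 977 bases over all genes.
The proteasome genes lie on 16 chromosomes. Psmb5 and Psmb11 lie near each other on chromosome 14, from 54614120 to 54617995 and from 54625310 to 54629556, and stood at 58.7 and 0.465 FPKM in GV WT oocytes.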

How the data were processed

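Libraries were made by SMART-Seq2, per the labels' protocols, a method that primes cDNA on poly(A) tails and amplifies it from small inputs. For each stage the authors deposited a table of estimated counts per gene, not scaled to library size, of which 14.45% to 16.32% per library were fractional. The authors also deposited FPKM values, scaled to gene length and library size. Genome build mm10 is named in the submitters' processing notes. The aligner, counter, annotation and strand setting are not given in the sources used here. The labels do not say that replicates came from separate animals, so p-values measure the spread between these libraries, which may be technical.

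Counts were rounded and joined by gene ID, since 241 IDs carry different symbols in the 2 count tables. Genotypes were compared within a stage, and stages and their difference in a fit of the 14 libraries with 4 groups. The test was edgeR 4.0.16 (R 4.3.3) with TMM scaling, genes kept by filterByExpr at its count minimum of 10, and the robust quasi-likelihood test. P-values were adjusted by Benjamini-Hochberg over all genes tested (threshold 0.05), and the procedure was tested on simulated data. The alternatives were DESeq2 1.42.0, other scaling, no filter, a replicate block, other libraries in the fit and each library left out. CPM values are counts per 1e+06 of the TMM-scaled library size of the 14 libraries. Standard errors are the log2 fold change divided by the square root of F. Marker, partner and role lists, like the members, were chosen with earlier results of these data known. Named were the catalytic and immunoproteasome genes, genes that passed a genotype comparison or else those with the smallest p-values, the highest and lowest fold change of each role class in a stage comparison, the highest FPKM of each class and the symbols of other function. Further genes are named to account for all members. Psmf1 and Psma5 were given in the ovulated genotype comparison after their values were seen. Coordinates came from the RefSeq annotation of GRCm38.p6 and, for message ends, from GENCODE M21. The RefSeq table held all 51 members. The message end of Psmg2 is not shown.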

Additional observations from a re-analysis of the deposited data

Results flagged for a closer look

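Psme3, the PA28 gamma gene, stood at 132 CPM in GV CKO replicate 1, far from the other 3 GV CKO libraries, which lay between 66.9 and 74.6 CPM. The gap to its neighbour made up 0.88 of the range of the group, above Dixon's 95% critical value for 4 samples. It was the 1 case among 90 groups of 4 libraries tested over the members, and chance alone flags about 1 in 20 groups. The groups of 3 ovulated libraries cannot be tested in this way.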

How the results depend on the processing

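Of 1066 values recomputed for single named genes under the alternatives, 1002 kept their direction and side of the threshold, and of 284 recomputed counts and medians 251 stayed close. The ovulated genotype comparison and the stage difference depended on the processing. DESeq2 called 114 genes and 4 members in the ovulated genotype comparison and the fit of 14 libraries 64 genes and 1 member (Psmb7), and leaving out a library gave 1 to 201 genes and 0 to 5 members, the upper ends without CKO replicate 3. For the stage difference DESeq2 called 64 genes and 1 member and the replicate block 0 genes, and leaving out a library gave 0 to 498 genes and 0 to 5 members. In GV oocytes DESeq2 called 39 genes and leaving out a library gave 3 to 6. Members called higher in ovulated WT than GV WT numbered 3 to 5 when a library was left out. The median of the members there was −1.80 under total counts and −2.31 to −1.89 with a library left out. In CKO oocytes total counts gave 6 members higher and a median of −0.85. The cause of these shifts was not tested.

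Signs turned for genes close to 0 or low. At the GV stage Psmb5 had 0.01 with median-of-ratios scaling, 0.01 in DESeq2, 0.00 in the 14-library fit and −0.25 to 0.22 with a library left out, Psmc3ip had −0.13 to 0.08 with a library left out, and Psme3ip1 had −0.06 under total counts. In ovulated oocytes Psmb6 had 0.01 under total counts and −0.31 to 0.08 with a library left out. In the WT stage comparison Psmb3 had 0.35 under total counts, 0.04 with median-of-ratios scaling and in DESeq2, 0.02 without the filter and −0.24 to 0.23 with a library left out, Psma7 −0.05 to 0.47 and Psmg1 −0.16 to 0.14. In the CKO stage comparison total counts gave 0.34 for Psma2, 0.48 for Psmg1 and 0.26 for Psmb3. The 7 CKO libraries alone gave 0.00 for Psmg1, leaving out a library gave −0.21 to 0.05 for Psmg1 and −3.46 to 0.62 for Psmb10, and the block gave −0.21 for Psmb10. In the stage difference Psmb10 ran from −2.86 to 5.44.

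The labels do not say that a replicate number marks a shared animal or batch, and the libraries were not treated as paired. At the GV stage deviations of same-numbered libraries correlated at 0.24, 0.38 and 0.47 for replicates 2, 3 and 4, each the best match of its number, and at −0.27 for replicate 1. In ovulated oocytes they correlated at −0.28 to 0.39. With the replicate block edgeR called 3 genes in GV and 1 in ovulated oocytes, and no member. Depth limits Psmb10, Psme1, Psmd13 and Psmg2 most, at a few CPM or less.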
